A study of Carassius carassius with 6 samples.

Results

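The 200 genes described here are the most evenly expressed genes of middle abundance in the brain of juvenile crucian carp (Carassius carassius). They were chosen by the measured values themselves. Among 41199 listed genes, 4622 had a mean of 20 up to 100 FPKM over 6 libraries (FPKM is the number of fragments scaled to gene length and to the total of the library). The 200 of these with the lowest coefficient of variation over the 6 libraries, that is the SD divided by the mean, were taken. The study compared a group exposed to deltamethrin at 0.6 µg/L over 28 days with a blank control group. It used 90 wild-type fish in all, and 3 brain libraries per group were sequenced. No source used here states whether a library holds 1 brain or several, and the spread between libraries may be partly technical. The gene identifiers in the table are not paired with names, and 0 of them matched the gene table of the species, so neither brain markers nor gene functions could be checked.

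Deltamethrin is a pyrethroid insecticide that keeps voltage-gated sodium channels of nerve cells open for longer, and fish are known to be sensitive to it. Genes whose level hardly differs between individuals or treatments are often those that every cell uses, such as parts of the machinery for making, folding and degrading proteins. Such genes serve as internal references when other transcripts are measured, and a reference is useful only if the treatment does not move it. Which functions the 200 genes have is not known here. FPKM is a level relative to the whole library, and in bulk tissue fewer cells of a type and less RNA per cell cannot be told apart.

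The libraries were of similar depth, with 20834735 to 22279901 recovered fragments in the deltamethrin group and 20284797 to 21504913 in the control group. Among the 4622 genes of the window, control replicate 3 stood apart, with a median level of 103.6% of a gene's mean, against 97.9% to 100.2% in the other libraries. No gene in the whole table passed the test between the groups. Of 25688 genes tested with limma on log2(FPKM + 1), 0 had an adjusted p under 0.05 (0%). At an unadjusted p under 0.05 there were 616 higher genes (2.4%) and 487 lower genes (1.9%), and limma's voom on recovered fragments gave 0 and 997 genes at these levels. Without deltamethrin replicate 2 the adjusted count was 1, and without deltamethrin replicate 3 it was 4. None of the 200 stable genes had an unadjusted p under 0.05 in any of these fits. The rule used the same values, so that count supports nothing. In the fit on log2(FPKM + 1) with all 6 libraries the choice fixed it, as no listed gene's group ratio could exceed 1.09. That is a smaller change than the narrowest 95% interval of any tested gene reached to either side, 0.20 on the log2 scale. In the other fits the count follows in part from the choice.

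Deltamethrin and control levels of the stable genes differed by a few percent. The most even gene stood at 49.737, 49.539 and 50.154 FPKM in deltamethrin brains and at 49.996, 50.051 and 49.334 FPKM in control brains. Its coefficient of variation was 0.645%, on a mean of 4402 fragments per library. The groups overlapped fully, and no library stood apart. The next gene lay at 32.5, 32.1 and 32.9 FPKM in deltamethrin brains and at 32.6, 33.0 and 32.3 FPKM in control brains, with a coefficient of 1.08%. At the other end, the last gene on the list had 34.2, 36.9 and 32.3 FPKM in deltamethrin brains and 33.3, 34.1 and 32.7 FPKM in control brains, with a coefficient of 4.83%. Here deltamethrin replicate 2 was the highest library and deltamethrin replicate 3 the lowest, on either side of the controls. The first gene left off the list had 30.3, 28.2 and 31.9 FPKM in deltamethrin brains and 29.7, 28.4 and 28.5 FPKM in control brains, with a coefficient of 4.84%. The edge of the list thus fell between neighbours with almost the same spread.

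Over all 200 genes, the deltamethrin mean differed from the control mean by a median of 2.32% in either direction, and by 6.30% at the 95th percentile. The group means lay within 1% of each other in 45 genes, within 2% in 88, within 5% in 174 and within 10% in all 200. In the other 4422 genes of the same abundance the median difference was 7.33%, and 35.0% of them lay within 5%. The choice makes a smaller difference unavoidable, because the coefficient covers both groups. It also fixed the count within 10%, as no listed gene's ratio could exceed 1.09. The deltamethrin mean was the higher one in 92 stable genes and the lower one in 108 (54%). It was the lower one in 58.6% of all genes of the window and in 47.7% of the tested genes. The balance in the stable genes turned with the scaling of the libraries: 75 were higher under median-of-ratios scaling and 125 under quantile normalization. No direction is therefore given for the set.

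**Figure D1:**
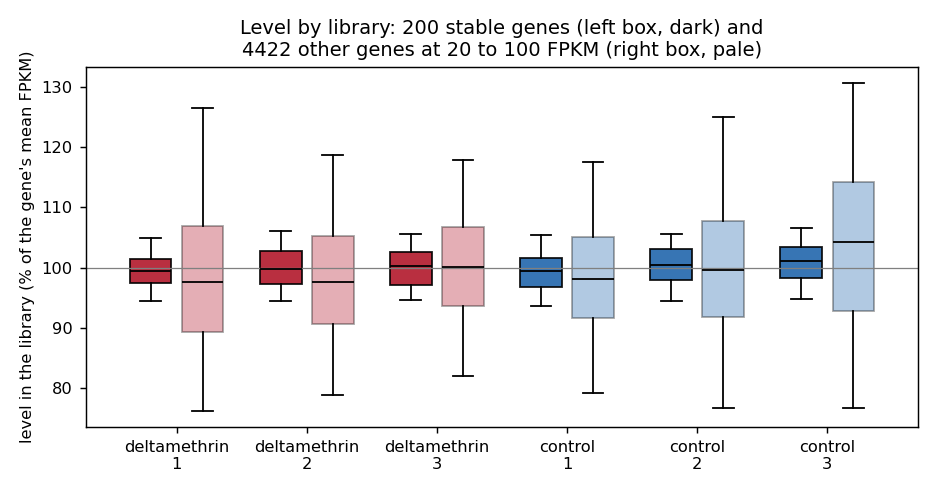
Level of each gene in each library as a percentage of its own mean FPKM, for the 200 stable genes (left box of each pair) and the other 4422 genes of 20 to 100 FPKM (right box). Boxes span the quartiles with the median as a line, and whiskers run from the 5th to the 95th percentile. Medians of the stable genes lie between 99.4% and 101.1%, while control replicate 3 stands at 104.2% in the other genes. The choice for low spread holds the levels of the stable genes close together.

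The largest differences among the 200 genes were under 10% of the level, which the rule guaranteed, as no listed gene's ratio could exceed 1.09. ENSCARG00000009430 had the highest ratio of deltamethrin to control. It was at 32.4, 32.5 and 33.7 FPKM in deltamethrin brains and at 30.8, 30.5 and 30.7 FPKM in control brains. All 3 deltamethrin values lay above all 3 control values, and the controls lay close together. The deltamethrin mean was 32.9 ± 0.75 FPKM and the control mean 30.7 ± 0.16 FPKM (SD, n = 3 each), a difference of 7.09%. The fit gave it a log2 fold change of 0.10 (standard error 0.09, adjusted p = 0.994, limma). ENSCARG00000028149 followed, at 74.6, 74.9 and 79.4 FPKM in deltamethrin brains and 74.0, 71.4 and 70.6 FPKM in control brains. Its groups did not overlap either, although deltamethrin replicate 1 and control replicate 1 were less than 1 FPKM apart. The difference was 5.99%.

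In the other direction, ENSCARG00000018634 was at 34.0, 34.0 and 34.8 FPKM in deltamethrin brains and at 37.1, 37.5 and 36.7 FPKM in control brains. Its deltamethrin values lay below every control value, with a mean of 34.3 ± 0.50 FPKM in deltamethrin brains and 37.1 ± 0.42 FPKM in control brains (SD, n = 3 each). The difference was -7.56%, and the log2 fold change was -0.11 (standard error 0.09, adjusted p = 0.994, limma). ENSCARG00000012590 was at 45.8, 46.2 and 43.8 FPKM in deltamethrin brains and at 50.2, 48.4 and 47.8 FPKM in control brains, a difference of -7.30%. These groups did not overlap either, the nearest values being those of deltamethrin replicate 2 and control replicate 3. Counting error alone left a narrow range for the first of these genes in each direction. On 4944 fragments in the deltamethrin libraries and 4495 in the control libraries, the ratio of ENSCARG00000009430 had an exact 95% binomial interval of 1.03 to 1.12. For ENSCARG00000018634, with 2111 deltamethrin and 2224 control fragments, it was 0.870 to 0.981. These intervals hold no spread between fish and belong to genes picked for their difference. They are no test of the exposure.

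The groups did not overlap in 21 of the 200 genes. In 6 of them (3%) the deltamethrin values were all higher, against 5.7% of the 25688 tested genes, and in 15 (7.5%) they were all lower, against 4.5%. Among all genes of the window, 4.52% were all higher and 6.82% all lower. The rule used these values, and nothing is read from the shares. The 6 higher genes differed by 4.47% to 7.09% and the 15 lower ones by -7.56% to -4.41%. The count of higher genes became 3 of 21 under median-of-ratios scaling and 12 of 18 under quantile normalization. Which direction was the more frequent thus turned under quantile normalization. With any 1 of the 6 libraries left out, which makes a gap easier, 36 to 45 genes did not overlap. Between-group differences made up on average 20.7% of the summed squares of the stable genes, and also 20.7% in the other genes of the window. With 3 libraries against 3, genes without a difference have 20% between the groups on average if all 6 libraries vary alike. The rule used these same values, so nothing is read from how near the stable genes lie to it.

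The rule itself limits how far apart the group means of a listed gene can lie in these libraries. With 3 values against 3, the gap between group means cannot exceed a fixed multiple of the overall SD. For the most even gene the cap was 1.18% of its mean, for the median gene 7.13% and for the last gene 8.81%, which is a ratio of 1.09. The typical gap was well inside its cap, with a median of 2.32% of the control mean against a median cap of 7.13% of the overall mean, as the plot of group difference by spread shows. The other genes of the window had a median gap of 7.33% against a median cap of 21.8%. Lying well inside the cap is therefore no trait of the stable genes. This cap describes these 6 libraries and not the population of fish.

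**Figure D2:**
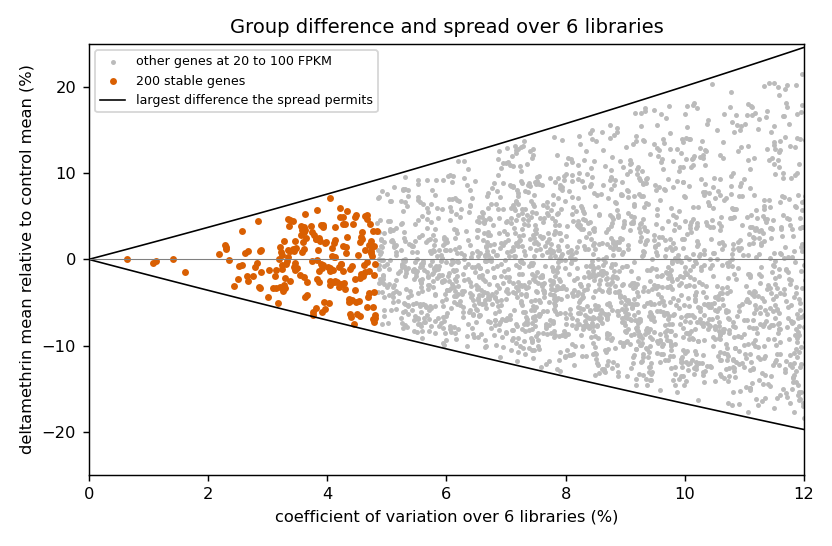
Difference of the deltamethrin mean from the control mean, in percent, against the coefficient of variation over 6 libraries, for the 200 stable genes (orange) and other genes of 20 to 100 FPKM (grey, cropped at 12% spread). Black lines mark the largest difference that a given spread permits with 3 libraries per group; the stable genes lie between -7.56% and 7.09%.

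The moderated 95% intervals of limma are wider than this cap. They estimate the spread of a gene partly from that of other genes of the same abundance, which offsets some of the choice for low spread. The choice also held the group means together, so each interval is centred on a difference kept small by the rule. The intervals therefore describe the listed genes in this fit and set no limit on the response of such genes in other fish. Lists chosen on 1 group, whose group means the rule did not hold together, had differences as far as -25.6% and 49.2%. The intervals reached a median of 0.22 to either side on the log2(FPKM + 1) scale. The largest change an interval allowed, stated as a rise, was a median of 19.3% over the 200 genes, 15.3% at the least and 24.96% at the most. All 200 intervals lay between a fall of 20% and a rise of 25%, which are the same change on the log2 scale. Over the whole window this held for 977 of 4622 genes (21.1%). The highest upper limit of the 200 was that of ENSCARG00000009430, a rise of 23.7%. For ENSCARG00000018634, the gene with the lowest ratio, the lower limit was -19.9%. These percentages are changes of FPKM + 1, which are slightly smaller than the changes of FPKM itself. With 0.1 or 0.01 added instead of 1, 195 of the 200 intervals lay between a fall of 20% and a rise of 25%. The largest reach was then 1.26-fold. With 1 library left out, between 101 and 181 of the 200 intervals kept to these bounds, 101 of them without deltamethrin replicate 3, 125 without deltamethrin replicate 1, and 132 both without deltamethrin replicate 2 and without control replicate 1. Intervals from the 3 and 3 values of each gene alone were narrower, with a median reach of 11.7% and a highest of 15.7%, but the genes were chosen for exactly that low spread. None of these intervals is corrected for the number of genes.

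**Figure D3:**
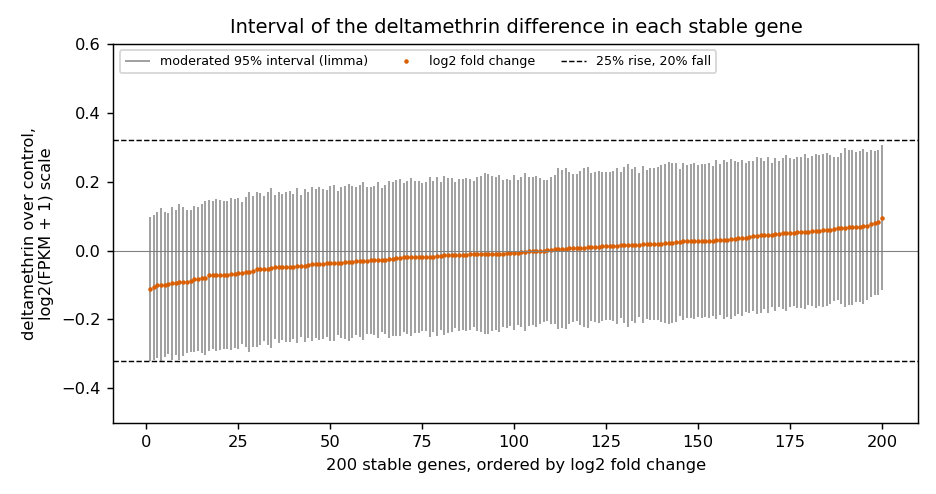
Moderated 95% interval (grey line) and log2 fold change (orange point) of deltamethrin over control on the log2(FPKM + 1) scale for each of the 200 stable genes, ordered by fold change. Dashed lines mark a rise of 25% and a fall of 20%, and all 200 intervals lie inside them, the widest reach being a rise of 24.96% or the matching fall.

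The spread of most stable genes exceeded their counting error but lay closer to it than in the window. That closeness follows in part from the choice: taking the lowest spreads lowers the observed variance and so raises the share that counting error makes of it. Whole fragments recovered from the FPKM values gave each gene's counting error, the spread that a count of that size has on its own. It had a median of 2.51% of the mean in the stable genes, beside an observed coefficient with a median of 3.90%. In the typical stable gene counting error thus corresponded to 43.1% of the variance, against 7.16% in the typical gene of the window. In 81 of the 200 genes (40.5%) it reached at least 50% of the variance, as it did in 2.86% of the window. The spread of 26 stable genes was at or under their counting error, from 0.645% to 3.92%, on 347 to 4402 fragments per library. Fragment numbers of that size would by themselves give a wider spread on average than these genes showed. After counting error was taken off, the remaining coefficient had a median of 2.88% in the stable genes and 11.1% in the window.

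**Figure D4:**
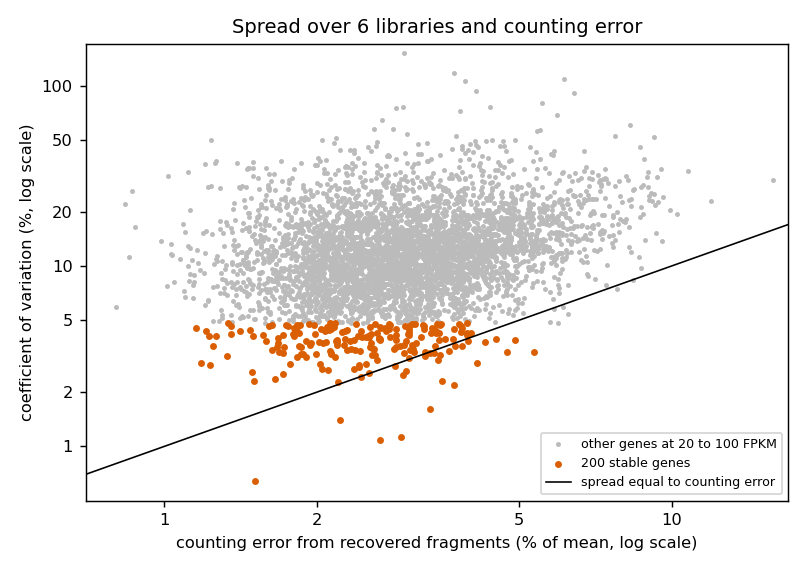
Coefficient of variation over 6 libraries against the counting error expected from the recovered fragments, both in percent of the mean on log axes, for the 200 stable genes (orange) and the other genes of 20 to 100 FPKM (grey). Genes under the black line varied less than counting error; 26 of the 200 stable genes lie at or under it.

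Long genes with many fragments were over-represented on the list. The stable genes had a median recovered length of 2031 bases and 1585 fragments per library, against 1540 bases and 1143 fragments in the other genes of the window. With the window split into 4 near-equal groups by recovered length, 17 of the 1155 shortest genes were listed (1.47%), then 50 of 1156 (4.33%), 59 of 1155 (5.11%) and 74 of the 1156 longest (6.4%). Split by fragments in the same way, the groups held 11, 53, 56 and 80 listed genes from the fewest fragments to the most. Split by mean FPKM, they held 33, 53, 52 and 62 from the lowest level to the highest. Across the 4622 genes the coefficient of variation had a Spearman correlation of -0.25 with length, -0.26 with fragments and -0.04 with mean FPKM. These are descriptions across genes, which share the same 6 libraries, and FPKM and fragments are made from the same counts. When genes were ranked by fragment variance over counting variance, the median length of the 200 lowest genes was 1170 bases, and 106 of them were on the list. Across the window that ratio itself rose with the fragment number (Spearman correlation 0.45). This ranking thus leans to genes with few fragments, a median of 722 per library, and does not remove the dependence on fragment number.

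The rank is set by the spread over both groups, so low ranks have a low spread within each group by choice. The 50 most even genes had a median coefficient of 2.49% among the deltamethrin libraries and 2.36% among the controls. The last 50 had 4.05% among the deltamethrin libraries and 4.57% among the controls. The steps between were uneven, the deltamethrin median being 3.70% for ranks 51 to 100 and 3.35% for ranks 101 to 150. Neither group was the more even one throughout: the deltamethrin libraries varied more than the controls in 94 of the 200 genes, and in 42.8% of the other genes of the window. Every library lay within 5% of the gene's mean in 53 of the 200 genes, and within 10% in all of them. The choice fixed the count within 10%, as the low spread of a listed gene left no library room to lie further from its mean. It also favoured the count within 5%, so nothing is read from either.

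The libraries took the high and low places on the list unequally, but no group held either end. The highest value of a stable gene lay in deltamethrin replicates 1, 2 and 3 in 24, 36 and 33 genes, and in control replicates 1, 2 and 3 in 29, 40 and 38 genes. The lowest value lay in the deltamethrin replicates in 33, 32 and 43 genes, and in the control replicates in 46, 23 and 23 genes. The summed level of the 200 genes was 8482, 8532 and 8544 FPKM in deltamethrin replicates 1, 2 and 3, and 8494, 8569 and 8636 FPKM in control replicates 1, 2 and 3. These ranges overlap. Control replicate 3 stood apart in the other genes of the window, where its median level was 104.2% of a gene's mean. In the stable genes it was at 101.1%. The choice for low spread left each library little room to stand apart there, so nothing is read from the smaller deviation. Control replicate 3 was the highest library in 1508 of the 4422 other genes, against 480 to 698 for each other library. A list chosen without deltamethrin replicate 2 shared 118 of its 200 genes with the one described, and a list without control replicate 3 shared 104, against 134 to 152 without any other single library.

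Levels in a library that had no part in the choice give a measure of evenness that the choice did not shape. The list was chosen anew on 5 libraries, and the new 200 genes were then read in the library left out. In that library they deviated from their mean in the other 5 by a median of 5.53%, 7.29% and 5.57% for deltamethrin replicates 1, 2 and 3, and by 4.83%, 5.08% and 8.87% for control replicates 1, 2 and 3. The deviation was smaller than that of all genes in the same window for each of the 6 libraries. In those the medians were 10.3%, 8.65% and 7.42% for the deltamethrin replicates and 7.82%, 9.0% and 12.8% for the control replicates. It was larger than in the 200 genes chosen with all 6 libraries, which deviated in the same sense by a median of 2.75% to 3.36% per library. The rechosen lists were thus less even in a left-out library than the described list was in a library used to choose it. In the left-out library, between 53.0% (control replicate 3) and 84.0% (control replicate 1) of the genes stayed within 10%. The most extreme of them deviated by 74.5%, in control replicate 3. The 6 lists rest on overlapping sets of libraries, so these readings are not independent of one another.

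**Figure D5:**
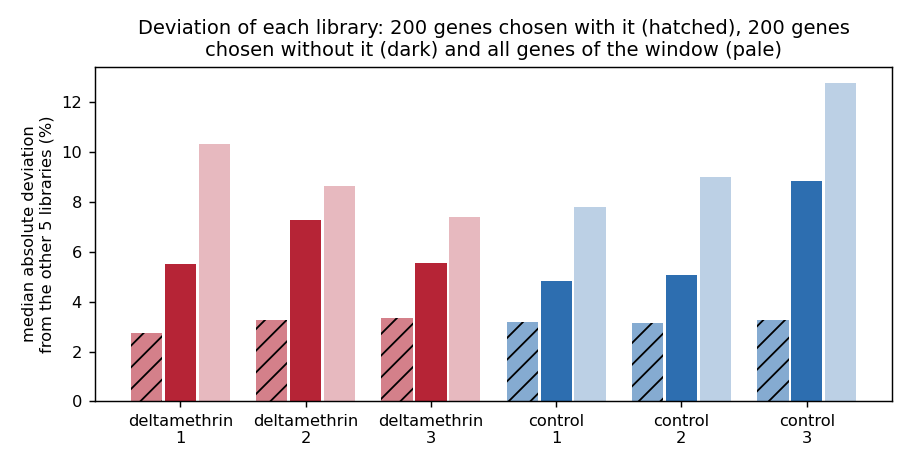
Median absolute deviation of each library from the mean of the other 5, in percent, for the 200 stable genes chosen with that library (hatched), for 200 genes chosen without it (dark) and for all genes of 20 to 100 FPKM (pale). For every library the dark bar, 4.83% to 8.87%, lies between the hatched one, 2.75% to 3.36%, and the pale one, 7.42% to 12.8%.

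Choosing on the libraries of 1 group and reading in the other gave the same picture. The 200 most even genes of the 3 deltamethrin libraries had a median coefficient of 1.71% there and 7.22% in the control libraries, where all genes of the window had 11.2%. The 200 most even genes of the 3 control libraries had a median coefficient of 1.82% there and 6.22% in the deltamethrin libraries, where the window had 9.49%. The group means of these genes were not held together by the choice. They differed by a median of 6.16% in the genes chosen on deltamethrin libraries, where the window had 7.04%, and of 5.17% in those chosen on control libraries, where the window had 6.92%. At the 95th percentile the differences were 20.3% and 16.9%. The deltamethrin list and the control list, taken from windows of 4646 and 4590 genes, shared 18 of their 200 genes, which is 9% of each. Unrelated lists would share about the portion that 200 genes make of such a window, which is under 9%. Whether the overlap exceeds that portion was not tested.

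Few genes were chosen under every rule tried, although some rules hardly changed the list. A list by the SD of log2(FPKM + 1) shared 193 of its 200 genes with the one described. By the range over the mean 176 were shared, and after median-of-ratios scaling 172. Lists by the remaining rules shared 54 to 152. Under 16 other rules, which left out libraries, rescaled them, changed the measure of spread or used 1 group, 7 of the 200 genes were chosen every time. They were the genes of ranks 1 to 5, 11 and 23, with coefficients of 0.645% to 2.84% and means of 23.5 to 63.2 FPKM. Their recovered lengths ran from 1252 to 4165 bases. The deltamethrin mean of these 7 genes differed from the control mean by -3.04% to 4.51%, and that of the first 4 by -0.406% to 0.032%. The first 5 varied less than their counting error, with a fragment variance of 0.150 to 0.411 times that expected from counting. A rule that all 7 genes passed ranked genes by this same ratio, and a low spread holds the group means together. Nothing is therefore read from these values. The 7 genes come from the same 6 libraries as the list, and a repeat in other fish was not analysed here.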

How the data were processed

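RNA sequencing of brain was deposited as 1 table of FPKM values made by the authors, with 1 column per library and each column named as a sample's description. Per the labels' protocols, TRIzol RNA and a VAHTS library kit were used. CASAVA is named in the submitters' processing notes. Details not given in the sources used here comprise aligner, counter, genome build, annotation and strandedness. The members, lists and tests were chosen with earlier results of these data known.

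The 25688 genes whose mean FPKM was 1 or more were fitted on log2(FPKM + 1), which understates changes of low genes, by limma 3.58.1 in R 4.3.3. The variance prior followed abundance, tests were two-sided and p-values were adjusted by Benjamini-Hochberg over all of these genes. Fragments, lengths and library totals were recovered from the FPKM steps, and 100% of tested genes came out whole within 0.001 in all 6 libraries. A factor common to a gene's length and all its counts cannot be seen, so a few counts and lengths may be too low. Fragments carry no molecular identifiers, and counting intervals cover counting error only. The procedures were tested on simulated data. Named identifiers are those with the 2 highest and 2 lowest ratios of group means among the members. Named lists of genes could not be applied without gene names. The other fits, list rules and left-out libraries are given in the closing section. Python 3.11.15 with scipy 1.17.1 was used.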

Additional observations from a re-analysis of the deposited data

How the results depend on the processing

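No gene passed the adjusted threshold of 0.05 (limma) with all libraries, and the count of 0 held in 16 of 18 other fits, and with single libraries left out it ranged from 0 to 4. The count of stable genes at an unadjusted p under 0.05 was 0 in all 18. The choice of the genes fixed this count in the main fit and favoured it in the others, so it supports nothing. Intervals between a fall of 20% and a rise of 25% numbered 101 to 181 of 200 with single libraries left out, and 78 without deltamethrin replicate 2 and control replicate 3 together, a pair chosen after seeing the data. Wider intervals follow from fewer libraries. In the other 11 fits the count lay between 157, with the replicate block, and 200. The largest and the median difference and the median spread moved by less than the typical SD within groups in each of 12 settings. That SD was about as large as the median spread itself and larger than the median difference. Neither median could easily have moved by more, so no stability is read from this comparison. The largest log2 ratio reached 0.16 after the trend of each library with gene length was removed. Stable genes whose groups do not overlap, 21 with all libraries, numbered 36 to 45 with single libraries left out and 62 without the pair, where fewer values make a gap easier. A list chosen by the SD of log2(FPKM + 1) shared 193 of 200 genes with the one described. By the range over the mean 176 were shared, and after median-of-ratios scaling 172. Lists with single libraries left out shared 104 to 152, and the list without the pair 65. Lists chosen on deltamethrin libraries shared 54, and on control libraries 65. By within-group SD 117 were shared, after quantile normalization 133, with the length trend removed 131 and by fragment variance over counting variance 106. The cause of these shifts was not tested. The last 2 rules were chosen after seeing the data. The 4 named genes kept their direction in all 18 fits. They were picked for their difference and their groups did not overlap, so leaving out libraries could not turn it. Changes to the filter, the block or the variance prior left the fold changes as they were. Only rescaling the libraries or removing the length trend could have turned the direction, so the number of fits is no measure of stability. The labels do not say that numbers pair the libraries: deviations of libraries with the same number correlated at 0.01, -0.18 and 0.23 across tested genes. For deltamethrin and control libraries with unlike numbers the correlations ran from -0.34 to 0.30. With the replicate block, 0 genes passed and no named gene did.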
